A study of Mus musculus with 35 samples.

Results

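Semaphorins, plexins and neuropilins were examined in 4 populations sorted from the brains of wild-type mouse embryos at E14.5, namely microglia, neural cells and the endothelial and mural cells of vessels. Members were chosen by a rule on symbols, set with earlier results of these data known. They are every gene named Sema3 to Sema7 with a letter from a to g, every gene named Plxna, Plxnb, Plxnc or Plxnd with a number, and *Nrp1* and *Nrp2*. Of 53465 genes listed in the bulk table, 31 were members, namely 2 neuropilins, 9 plexins and 20 semaphorins. The semaphorins comprised 7 genes of class 3, 6 of class 4, 2 of class 5, 4 of class 6 and 1 of class 7.

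Semaphorins are secreted, membrane-spanning or lipid-anchored guidance proteins that steer axons, migrating neurons and growing vessels. Plexins are their main signalling receptors and act through small GTPases to reshape the actin cytoskeleton. Most secreted class 3 semaphorins bind a neuropilin, which pairs with a plexin of class A, while semaphorins of classes 4 to 7 bind plexins directly, and class 3 member *Sema3e* binds *Plxnd1* without a neuropilin. Neuropilins also bind vascular endothelial growth factors, so the same receptors serve vessel growth.

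The bulk RNA-seq covered 12 libraries, 1 of each population from each of 3 brains, and a single-cell series (mCEL-Seq2, which counts molecular identifiers) covered the same gates on 3 wild-type plates. Neural cells were those negative for the vascular and blood cell surface markers PECAM1, CD102, PDGFRβ, CD45 and CD41 (and CD11b in bulk), so this gate can hold any cell without these markers. Mural cells (pericytes and vascular smooth muscle) were sorted as PDGFRβ high, endothelial cells as positive for PECAM1 and CD102, and microglia as CD45 medium and CD11b positive, with CD41 positive and CD45 medium given for the microglial wells. The strain is not given in the sources used here, and all groups share the genotype, the stage and the tissue. RNA and libraries of neural cells were made with other kits (Qiagen mini, TruSeq) than those of the other 3 populations (miRNeasy Micro, SMART-Seq v4 and Nextera XT), so in bulk the neural population and its kits cannot be told apart. For that reason each of the other populations was also compared with only those that share its kits, and the single cells, in which all gates share 1 chemistry, are given beside the bulk values. Bulk libraries are named by population and brain, with N for neural, Mu for mural, Ec for endothelial and Mi for microglial ones (N-340, Mu-343 and Ec-346, for example), and those of 1 number are taken to come from 1 brain. Values listed for a population are in the order of the 3 brain numbers, lowest first.

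Between 17638358 and 98414914 reads per bulk library fell on genes, and the deposited normalized counts are on a linear scale common to all libraries. Each of the 20 markers used to check the labels was highest in its own population. The summed fibroblast markers reached 3565 to 4954 normalized counts in mural libraries and at most 3.02 in endothelial ones. The summed border macrophage markers reached 8295 to 10911 in microglia and 325 to 994 in mural cells. The erythroid markers summed to 5567 to 15489 in endothelial cells, 3773 to 4959.9 in neural cells and at most 879.9 in the other 2 populations. The part of such cells in the results for any of the 4 populations was not tested. Neural markers summed to between 1478 and 4423 in the other 3 populations, against 80075 to 87988 in neural cells. Mural markers summed to 3858 to 6962 in endothelial libraries, against 690401 to 739450.0 in mural ones, and endothelial markers to 1060.2 to 1520.3 in microglia and 677 to 1152 in mural cells, against 142574 to 159138 in endothelial ones. In sorted bulk samples a lower level may mean fewer cells with the transcript or less RNA in each, and these cannot be told apart. Exons of 7 members share bases with another gene, in *Plxna1*, *Plxna4*, *Plxnb1* and *Sema4c* with one on the opposite strand, and whether counting used the strand is not given in the sources used here.

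Most members were highest in neural cells. Of the 31 members, 30 reached a mean normalized count of 10 over the 12 libraries and were tested with limma, each population against the mean of the other 3. Neural levels were higher for 24 of these 30, while 32.9% of the 19765 tested genes were higher there. A call is made against the mean log level of the other 3 and does not require the highest level. *Plxnb2*, *Sema3e*, *Sema3g*, *Sema6a* and *Sema6d* were called though another population had a higher mean. *Sema6d* averaged 4744 normalized counts in neural and 18292 in mural cells, and *Sema3g* 58.4 in neural and 1221 in endothelial cells. Only *Nrp1* was lower in neural cells among the tested members, against 31.2% of all genes. The 3 neural libraries all lay above the other 9 for 19 members, against 25.2% of genes. The median log2 difference was 4.10 over the tested members and 0.09 over all tested genes. A difference over 10-fold in limma was called higher for 18 members, against 13.8% of genes, and lower for 0, against 1983 of the 19765 genes (10%). All neural libraries lay below the others for 1 member, against 17.3%. By mean level, 20 of the tested members were highest in neural cells, 5 in endothelial cells, 3 in microglia and 2 in mural cells. *Sema4f* passed the minimum only through its neural libraries, since the other 9 averaged 0.937, so its neural call follows in part from that minimum. Without it 23 of 29 members were higher in neural cells, 17 of them over 10-fold, and the neural libraries lay above the others for 18.

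**Figure D1:**
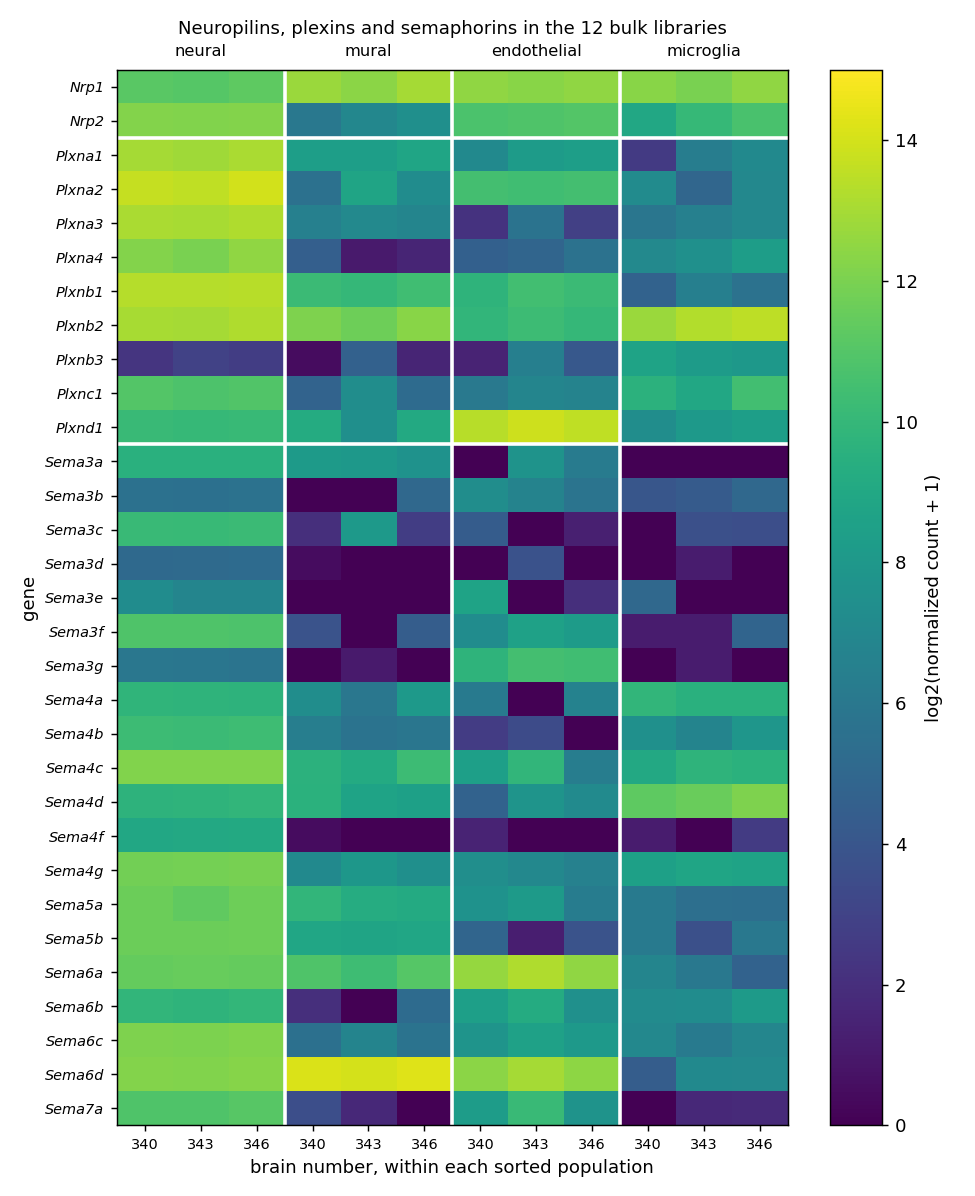
Each row is 1 of the 31 genes and each column 1 of the 12 bulk libraries, grouped by population and labelled by brain number. The colour gives log2(normalized count + 1), from 0 (dark) to 15 (yellow). Most plexins and semaphorins are brightest in the 3 neural columns, with *Plxnd1* and *Sema6a* brightest in endothelial cells and *Sema6d* in mural cells.

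Leaving out 1 brain at a time kept 21 of the 24 higher neural calls. The others were lost in limma without the brain of N-340 for *Sema6b* (adjusted p = 0.0609), without the brain of N-343 for *Sema3e* (adjusted p = 0.106) and *Sema6d* (adjusted p = 0.0930) and without the brain of N-346 for *Sema3e* (adjusted p = 0.145) and *Sema6d* (adjusted p = 0.141). The call of *Sema3g* was lost with a pseudocount of 10 (limma adjusted p = 0.180) and that of *Sema6d* also with no minimum level (adjusted p = 0.0584), which left 20 that kept it wherever an adjusted p was given, the 10-fold requirement aside. The 31st member, *Sema3d*, a secreted class 3 semaphorin, had a mean of 9.91 normalized counts and stayed just below the minimum. It was at 33.4, 34.9 and 36.2 normalized counts in the neural libraries, and at most 12.8 elsewhere.

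The neuropilins divided the populations in opposite ways. *Nrp1* (chromosome 8, 128358604 to 128503363, plus strand in GRCm38), a co-receptor for *Sema3a* and for VEGF-A, was lowest in neural cells. Its normalized counts were 2273, 2097 and 2469 in neural libraries, 5097, 4006 and 5782 in microglial, 5769, 5062 and 5737 in endothelial and 6797, 5275 and 8154 in mural ones. All neural libraries lay below the other 9, whereas mural and endothelial values overlapped, as did endothelial and microglial ones. The log2 difference of neural cells from the other populations was -1.31 ± 0.14 (SE, adjusted p = 1.71e-05) in limma. The exact two-sided permutation test of 3 libraries against 9 gave p = 0.00909, the smallest it can give. That value follows from the lack of overlap and adds nothing to it. Mural levels were higher by 0.75 ± 0.14 (SE, adjusted p = 0.00183) on the log2 scale in limma. Against only the populations of the same kits the mural difference was 0.35 ± 0.15 (SE, adjusted p = 0.0975) and was not called. The endothelial difference from the other 3 populations, 0.39 ± 0.14 (SE, adjusted p = 0.0483), was lost whichever brain was left out, at limma adjusted p between 0.0635 and 0.250. For *Nrp1* against the other 3 populations the permutation test gave p = 0.0364 in mural and 0.464 in endothelial cells.

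*Nrp2* (chromosome 1, 62703285 to 62818695, plus strand), a co-receptor for *Sema3c*, *Sema3f* and *Sema3g*, showed another order. Its normalized counts were 4673, 4505 and 4708 in neural cells, 1745, 1878 and 2063 in endothelial cells, 508, 1046 and 1676 in microglia and 63.4, 124 and 173 in mural cells, and no 2 neighbouring populations overlapped. The mural log2 difference was -4.18 ± 0.35 (SE) against all others and -3.59 ± 0.37 against the populations of the same kits (limma adjusted p = 6.95e-06 and 2.81e-05). In neural cells the log2 difference was 2.98 ± 0.35 (SE, adjusted p = 2.64e-05) in limma. Mural cells thus held the highest *Nrp1* mean and the lowest *Nrp2* mean of the 4 populations.

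**Figure D2:**
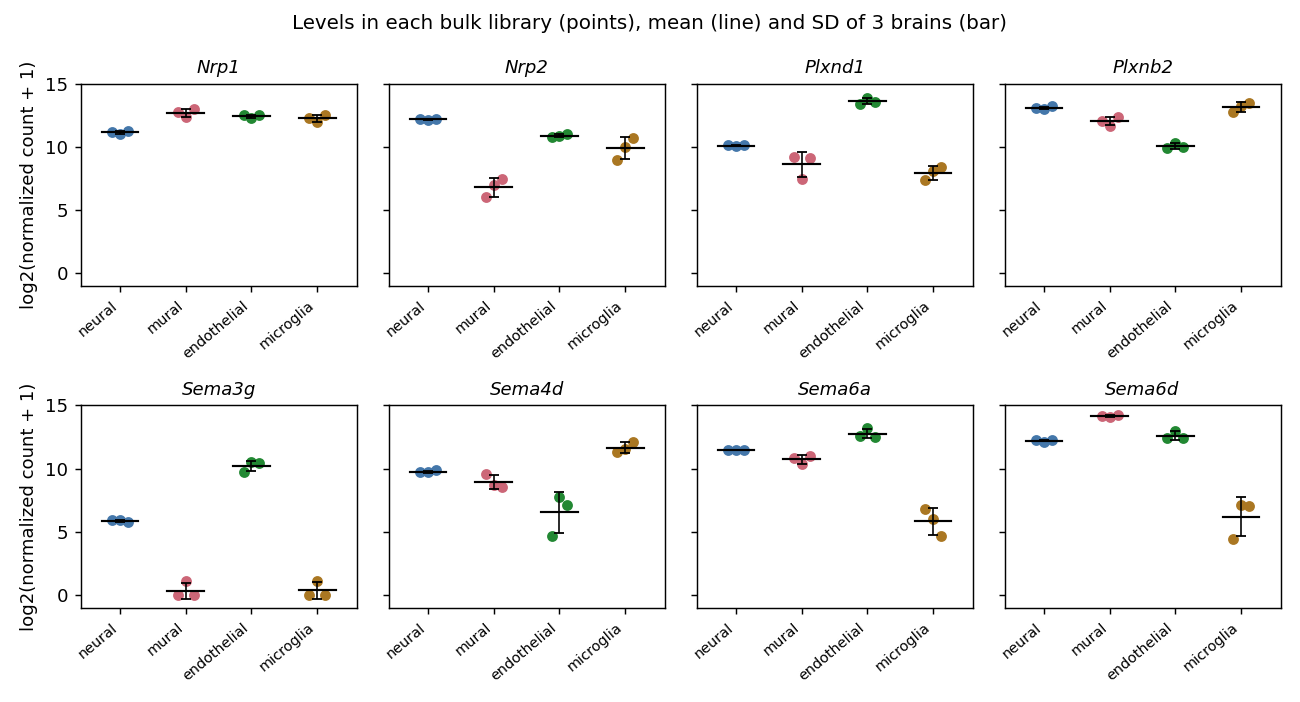
Levels of 8 genes in the 12 bulk libraries, as log2(normalized count + 1), by population. Points are libraries, lines are means of 3 libraries and bars their SD. *Nrp2* is lowest in mural cells, *Plxnd1*, *Sema3g* and *Sema6a* are highest in endothelial cells, *Sema6d* in mural cells and *Sema4d* in microglia, while *Plxnb2* overlaps between neural cells and microglia.

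The 4 plexins of class A, which carry signals of class 3 semaphorins with neuropilins and bind class 6 semaphorins directly, were all highest in neural cells. *Plxna1* had normalized counts of 7934, 7360.1 and 8743 in neural libraries, 339.9, 337 and 452 in mural, 136, 304 and 335 in endothelial and 4.75, 81.8 and 136 in microglial ones. *Plxna2*, a receptor of *Sema6a*, had 13334, 11878 and 15784 in neural libraries, 1441, 1368 and 1478 in endothelial, 46.8, 425 and 159 in mural and 151, 29.6 and 128 in microglial ones. For both genes every neural library lay above the other 9, and for *Plxna2* the mural and microglial libraries overlapped. The limma log2 differences of neural cells were 5.70 ± 0.76 and 5.70 ± 0.60 (SE, adjusted p = 7.00e-05 and 1.25e-05). Among the 3 populations that share kits, endothelial cells held *Plxna2* at a log2 difference of 3.68 ± 0.64 (SE, adjusted p = 0.00124), with all 3 libraries above the mural and microglial ones.

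*Plxna3*, a receptor for class 3 semaphorins with *Nrp2*, was at 8800.3, 8448 and 9321 normalized counts in neural libraries, 90.0, 132 and 112 in mural, 59.4, 91.3 and 129.7 in microglial and 3.54, 52.5 and 6.03 in endothelial ones. *Plxna4*, a receptor of *Sema3a* and *Sema6a*, was at 4830.2, 4081 and 5791 in neural libraries, 134, 187 and 321 in microglial, 23.0, 28.4 and 49.8 in endothelial and 21.8, 1.14 and 1.88 in mural ones. These were the largest neural differences of any plexin, 7.49 ± 0.62 for *Plxna3* and 7.22 ± 0.65 for *Plxna4* on the log2 scale (SE, limma adjusted p = 1.87e-06 and 3.80e-06). Outside neural cells the lowest levels differed, since *Plxna3* was lowest in endothelial cells and *Plxna4* in mural cells. Within the shared kits *Plxna4* was higher in microglia by 3.94 ± 0.69 (SE, adjusted p = 9.58e-04) on the log2 scale in limma, with no overlap.

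The plexins of class B, receptors of class 4 semaphorins, differed from one another. *Plxnb1*, the classical receptor of *Sema4d*, was at 10179.8, 10132 and 10932 normalized counts in neural libraries, 1191, 1023 and 1344 in mural, 851, 1435 and 1179 in endothelial and 25.0, 87.8 and 49.1 in microglial ones. Neural libraries lay above and microglial libraries below all others, with limma log2 differences of 4.69 ± 0.31 (SE, adjusted p = 3.11e-07) and -5.63 ± 0.31 (SE, adjusted p = 1.16e-07). *Plxnb2* (chromosome 15, 89155549 to 89180788, minus strand), a receptor of *Sema4c* and *Sema4d*, was high in 3 populations, at 8428, 8201 and 9443 normalized counts in neural cells, 6778, 9714 and 11430.0 in microglia and 4348, 3270.0 and 5232 in mural cells. Endothelial libraries held 949.8, 1255 and 1024 and lay below all others, with a log2 difference of -2.69 ± 0.18 (SE, adjusted p = 1.13e-06) in limma. Neural and microglial libraries overlapped, and both were higher than the rest by limma, with log2 differences of 1.33 ± 0.18 and 1.42 ± 0.18 (SE, adjusted p = 6.81e-05 and 6.63e-05).

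*Plxnb3*, another class B receptor, was the only plexin with its 3 microglial libraries above all others. It was at 411, 304 and 257 normalized counts in microglia, 1.77, 89.4 and 16.6 in endothelial, 0.437, 24.0 and 1.88 in mural and 4.01, 6.65 and 5.55 in neural libraries. The limma log2 difference of microglia was 5.34 ± 1.04 (SE, adjusted p = 0.00161), and 5.18 ± 1.10 (SE, adjusted p = 0.00341) against the populations of the same kits. The latter was no longer called without the brain of Mi-346 (adjusted p = 0.0738). *Plxnc1*, the receptor of *Sema7a*, was at 1989.8, 1765 and 1981 in neural cells, 783, 508 and 1425 in microglia, 65.6, 112 and 103 in endothelial and 26.7, 165 and 36.6 in mural cells. Its neural libraries lay above all others (log2 difference 3.56 ± 0.50 (SE, adjusted p = 1.11e-04) in limma). Within the shared kits its microglial libraries lay above the rest, by 3.53 ± 0.53 (SE, adjusted p = 3.35e-04).

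*Plxnd1* (chromosome 6, 115954811 to 115995005, minus strand), the receptor of *Sema3e* on vessels, led the plexins of endothelial cells. It was at 10676, 14716 and 12001 normalized counts in endothelial libraries, 1128, 1047 and 1106 in neural, 599.9, 179 and 559.8 in mural and 163, 272 and 334 in microglial ones. All endothelial libraries lay above the other 9, and the log2 difference of 4.71 ± 0.34 (SE, adjusted p = 2.62e-06) in limma is 26.1-fold on the log2(value + 1) scale. Its secreted ligand *Sema3e* was not a stable endothelial gene, at 415, 0 and 3.02 normalized counts in endothelial libraries. *Sema3e* stood at 158, 111 and 114 in neural libraries, 32.1, 0 and 0 in microglial ones and 0 in all mural ones. Ec-340 alone set the endothelial level of *Sema3e*, and the other endothelial libraries read at most 3.02. The neural difference of *Sema3e*, 5.23 ± 1.60 (SE, adjusted p = 0.0144) on the log2 scale in limma, was lost without the brain of N-343 or of N-346 (adjusted p = 0.106 and 0.145).

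*Sema3g* (chromosome 14, 31217860 to 31230352, plus strand), a secreted ligand of *Nrp2* complexes, shared the endothelial pattern of *Plxnd1*. Its normalized counts were 856, 1448 and 1359 in endothelial libraries, 61.4, 59.3 and 54.4 in neural ones, 0, 1.14 and 0 in mural ones and 0, 1.19 and 0 in microglial ones. Endothelial libraries lay above all others, with a log2 difference of 8.01 ± 0.49 (SE, adjusted p = 6.68e-07) in limma. With the pseudocount of 1 this was the largest of any member in any population against the rest, *Sema4f* in neural cells left aside. Its size depends on that pseudocount, since mural and microglial counts were close to 0. The neural libraries lay between, all of them above the mural and microglial ones, which held at most 1 read each.

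Shown are the bases from 250 to 21 before the start site of these 2 endothelial genes and of *Plxnb3*, highest in bulk microglia. Each gene stands apart in 1 population in bulk and has a single listed start in the RefSeq table (GRCm38.p6). Capitals mark GGAAG, the core letters of ETS sites, and ACAAT, letters of SOX sites, on either strand, and TGTTTAC, letters of forkhead sites, was searched as well and found in 0 of 37 windows of members and in 2.91% of all windows. No marked stretch overlaps another.
Plxnd1 (chr6:115995026-115995255, minus strand): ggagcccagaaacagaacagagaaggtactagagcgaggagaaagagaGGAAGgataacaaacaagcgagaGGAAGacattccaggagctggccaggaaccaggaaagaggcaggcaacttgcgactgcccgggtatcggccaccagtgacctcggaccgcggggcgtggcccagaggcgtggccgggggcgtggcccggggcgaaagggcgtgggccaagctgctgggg
Sema3g (chr14:31217623-31217852, plus strand): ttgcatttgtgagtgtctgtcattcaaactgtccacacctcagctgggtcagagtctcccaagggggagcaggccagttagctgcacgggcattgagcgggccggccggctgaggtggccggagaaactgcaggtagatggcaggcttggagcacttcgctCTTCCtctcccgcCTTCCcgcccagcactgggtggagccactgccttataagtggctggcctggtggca
Plxnb3 (chrX:73756853-73757082, plus strand): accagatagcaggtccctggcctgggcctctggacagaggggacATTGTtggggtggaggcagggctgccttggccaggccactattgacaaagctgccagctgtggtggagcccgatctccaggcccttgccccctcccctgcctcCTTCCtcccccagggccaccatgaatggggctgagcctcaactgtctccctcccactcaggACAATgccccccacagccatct
GGAAG occurred 2 times before *Plxnd1*, 2 times before *Sema3g* and 1 time before *Plxnb3*. It was in 75.7% of the members' windows and in 60.3% of all 32851 windows of this length. ACAAT occurred 2 times before *Plxnb3* and in neither of the other two, and 21.6% of the members' windows and 26.4% of all windows held it. Windows were found for 26 of the 31 members. The 37 windows of members had a median GC content of 63.9% and a median of 11 CG dinucleotides, against 51.7% and 5 over all windows. These matches are letters in a window and were not tested as binding sites.

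The other class 3 semaphorins, the secreted repellents and attractants of axons, were mostly neural. *Sema3a* was at 738, 734 and 741 normalized counts in neural cells, 291, 258 and 200.1 in mural cells, 0, 204 and 75.4 in endothelial cells and 0 in all microglial libraries. *Sema3c* was at 1160.5, 1106 and 1214 in neural cells, 3.06, 272 and 5.64 in mural, 19.5, 0 and 1.51 in endothelial and 0, 11.9 and 11.3 in microglial libraries. *Sema3f*, which repels through *Nrp2*, was at 1842, 1835 and 1809 in neural cells, 158, 385 and 302 in endothelial, 13.1, 0 and 20.7 in mural and 1.19, 1.19 and 27.7 in microglial libraries. In all 3 genes each neural library exceeded the other 9, with limma log2 differences of 5.33 ± 1.23, 7.31 ± 1.36 and 6.45 ± 1.0 (SE, adjusted p = 0.00305, 7.57e-04 and 2.17e-04). Outside neural cells they parted, with *Sema3a* next in mural cells and *Sema3f* next in endothelial cells. Mu-343 stood far above the other mural libraries in *Sema3c*.

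*Sema3b* was low throughout, at 163, 105 and 52.8 normalized counts in endothelial cells, 48.1, 44.9 and 50.2 in neural cells, 15.5, 19.0 and 32.7 in microglia and 0, 0 and 31.9 in mural cells. Endothelial libraries lay above all others by 2.69 ± 0.97 (SE, adjusted p = 0.0446) on the log2 scale in limma. That call was lost under the replicate block (adjusted p = 0.0550), with edgeR or DESeq2 on whole reads (0.136 and 0.125) and without the brain of Ec-340 or of Ec-343 (0.300 and 0.232).

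Class 4 semaphorins span the membrane and act mostly on plexins of class B. *Sema4d* (chromosome 13, 51685529 to 51793747, minus strand), known from immune cells, led the semaphorins of microglia, at 2488, 3050.0 and 4415 normalized counts, against 832, 848 and 930.2 in neural, 773, 421 and 375 in mural and 24.8, 217 and 142 in endothelial libraries. Microglial libraries lay above and endothelial ones below all others, with limma log2 differences of 3.23 ± 0.53 (SE, adjusted p = 4.91e-04) and -3.59 ± 0.53 (SE, adjusted p = 3.54e-04). *Sema4c*, a ligand of *Plxnb2*, was at 4518, 4612 and 4623 in neural cells, 809, 574 and 1267 in mural, 359.7, 935 and 81.4 in endothelial and 529, 867 and 758 in microglial libraries. Neural libraries lay above the rest, by 3.02 ± 0.56 (SE, adjusted p = 7.05e-04) on the log2 scale in limma. Its exons share bases with *D430040D24Rik* on the opposite strand, which read between 103 and 363 normalized counts in the 12 libraries.

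*Sema4b* was at 1243, 1181 and 1288 normalized counts in neural cells, 183, 107 and 232 in microglia, 84.8, 51.4 and 57.3 in mural and 5.32, 9.94 and 0 in endothelial libraries, and no neighbouring populations overlapped. *Sema4g* was at 3654, 3749.5 and 3867 in neural cells, 372, 442 and 409 in microglia, 135, 245 and 178 in mural and 172, 128 and 96.5 in endothelial libraries. *Sema4f* was read mainly in neural cells, at 518, 521 and 563 there, 1.19, 0 and 5.04 in microglia, 1.77, 0 and 0 in endothelial and 0.437, 0 and 0 in mural libraries. No fitted difference is given for *Sema4f*, which was read at most a few times per library outside neural cells. The neural log2 differences of *Sema4b* and *Sema4g* were 5.13 ± 0.63 and 4.14 ± 0.23 (SE, limma adjusted p = 4.00e-05 and 1.07e-07). *Sema4a*, a semaphorin of immune cells and retina, was shared by neural cells and microglia, with means of 800.4 ± 123 in microglia, 865 ± 48.7 in neural libraries, 163 ± 101 in mural libraries and 55.7 ± 50.4 in endothelial libraries. Neural and microglial values overlapped, and neither population was called in limma against the rest (adjusted p = 0.0516 and 0.0837). With the brain as a block the neural call of *Sema4a* passed.

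The class 5 semaphorins, membrane proteins with thrombospondin repeats, were highest in neural cells and next in mural cells. *Sema5a* was at 3122, 2609.9 and 3258 normalized counts in neural cells, 951, 619.8 and 573 in mural, 198, 284 and 76.9 in endothelial and 68.9, 43.9 and 41.5 in microglial libraries. *Sema5b* was at 3142, 3233 and 3365 in neural cells, 478, 430.3 and 475 in mural, 28.4, 1.42 and 13.6 in endothelial and 72.5, 11.9 and 62.9 in microglial libraries. For both genes neural libraries lay above all others and mural libraries above the endothelial and microglial ones. Against the populations of the same kits the mural log2 differences were 2.93 ± 0.39 and 4.53 ± 0.75 (SE, limma adjusted p = 1.72e-04 and 8.08e-04). The neural log2 differences were 4.05 ± 0.37 and 5.84 ± 0.71 (SE, limma adjusted p = 3.79e-06 and 3.69e-05).

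Class 6 semaphorins, membrane-spanning ligands of class A plexins, included the leading vascular members. *Sema6d* (chromosome 2, 124089969 to 124667770, plus strand), a ligand of *Plxna1*, was at 17939.9, 17092 and 19845 normalized counts in mural cells, 5390.2, 8152 and 5547 in endothelial cells, 4801, 4526 and 4906 in neural cells and 20.2, 139.9 and 133 in microglia. No neighbouring populations overlapped, and the mural log2 difference was 3.81 ± 0.47 (SE, adjusted p = 9.88e-05) in limma, or 4.75 ± 0.50 (SE, adjusted p = 3.20e-05) within the shared kits. *Sema6a*, a ligand of *Plxna2* and *Plxna4*, was at 6278, 9462 and 5804 in endothelial cells, 2851, 2869 and 2842 in neural cells, 1832, 1322 and 2079 in mural cells and 111, 62.9 and 25.2 in microglia, again without overlap. Its endothelial log2 difference was 3.42 ± 0.35 (SE, adjusted p = 3.00e-05) in limma. Both genes were lowest in microglia, with log2 differences of -6.79 ± 0.47 and -5.83 ± 0.35 (SE, limma adjusted p = 6.78e-07 and 2.48e-07).

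The remaining class 6 members were neural. *Sema6c* was at 4423, 4164 and 4654 normalized counts in neural cells, 219.7, 383 and 281 in endothelial, 126, 68.8 and 117 in microglial and 45.0, 106 and 50.7 in mural libraries. *Sema6b* was at 927, 858 and 995 in neural cells, 354, 598 and 184 in endothelial, 149, 155 and 289.6 in microglial and 3.06, 0 and 36.6 in mural libraries. Neural libraries lay above all others in both, and mural libraries below all others in *Sema6b* (log2 difference -6.19 ± 0.85 (SE, adjusted p = 2.14e-04) in limma). *Sema7a*, a lipid-anchored ligand of *Plxnc1* and integrins, was at 1863, 1839.6 and 2194 in neural cells, 307, 1136 and 211 in endothelial, 11.4, 2.28 and 0 in mural and 0, 2.37 and 2.52 in microglial libraries. Ec-343 gave a *Sema7a* level several times that of the other endothelial libraries. The neural log2 difference of *Sema7a* was 7.04 ± 0.79 (SE, adjusted p = 1.93e-05) in limma, and within the shared kits the endothelial one was 7.23 ± 0.83 (SE, adjusted p = 7.43e-05), with all endothelial libraries above the others.

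Divided by exon length, the levels show which member leads each population. Per kilobase of exon, the semaphorins summed to 5600.0 ± 189 normalized counts in neural libraries, 2409.5 ± 247 in mural, 2257 ± 736 in endothelial and 918 ± 163 in microglia (SD, n = 3). *Sema6d* alone made up 72.0% ± 2.30 of the mural sum. Endothelial cells were led by *Sema6a* with 36.6% ± 1.73 and *Sema6d* with 27.1% ± 2.24, followed by *Sema3g* with 12.3% ± 3.79. Microglia were led by *Sema4d* with 46.4% ± 5.53, and class 4 as a whole made up 88.8% ± 1.55 of their sum. In neural cells no member exceeded the 17.8% ± 0.572 of *Sema4c*, followed by *Sema6c* with 13.3% ± 0.331 and *Sema7a* with 10.6% ± 0.715.

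The plexins were more uneven outside neural cells. Their summed level per kilobase was 5743 ± 451 normalized counts in neural cells, 2100.5 ± 351 in endothelial cells, 1446 ± 358 in microglia and 819 ± 158 in mural cells (SD, n = 3). *Plxnd1* made up 81.3% ± 0.748 of the endothelial sum. *Plxnb2* made up 83.3% ± 3.21 in microglia and 67.4% ± 2.68 in mural cells. Neural cells held *Plxnb2*, *Plxna3* and *Plxnb1* at nearly equal shares of 19.6% ± 0.300, 19.6% ± 0.558 and 18.9% ± 0.761, and their levels per kilobase, 1126 ± 85.7, 1124 ± 55.7 and 1086 ± 46.8, lay within 1 SD of one another. The leading member of each population was the same when the longest transcript gave the length.

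**Figure D3:**
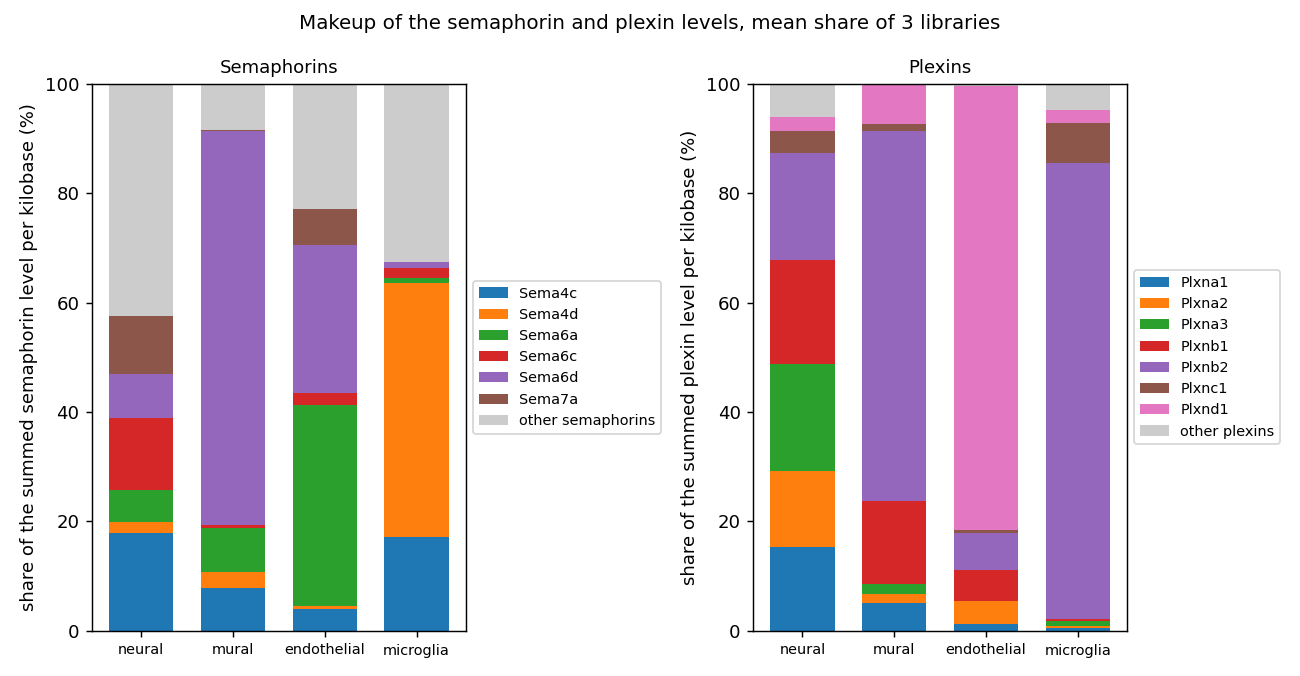
Stacked bars give the mean share (%) of each gene in the summed semaphorin level (left) and plexin level (right) per kilobase of exon, in 3 libraries of each population. *Sema6d* fills 72.0% of the mural semaphorin bar, *Plxnd1* 81.3% of the endothelial plexin bar and *Plxnb2* 83.3% of the microglial one, while neural bars are divided among many genes.

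Counted over the family, vascular cells and microglia had fewer members above the rest than neural cells did. In mural cells 4 tested members were higher and 13 lower, against 19.3% and 22.7% of all genes. The higher ones were *Nrp1*, *Sema5a*, *Sema5b* and *Sema6d*, of which *Nrp1* and *Sema6d* kept the call in every alternative run except that the 1.68-fold difference of *Nrp1* did not reach 10-fold. In endothelial cells 9 were higher and 13 lower, against 19.7% and 22.4%. *Plxnd1*, *Sema3g* and *Sema6a* kept the endothelial call throughout, and without the brain of Ec-343 they were the only 3 left, since *Nrp1*, *Nrp2*, *Sema3b*, *Sema3f*, *Sema6d* and *Sema7a* were then lost. Without the brain of Ec-346 the lower endothelial members fell in number to 8. In microglia 4 were higher and 14 lower, against 23.4% and 22.3%. Among the lower ones of each of these 3 populations (mural, endothelial, microglial) was *Sema4f*, which was tested only through its neural libraries, and without it the lower ones numbered 12, 12 and 13 in the same order. The higher ones were *Plxnb2*, *Plxnb3*, *Plxnc1* and *Sema4d*, and *Plxnc1* was lost without the brain of Mi-340 or of Mi-346 (adjusted p = 0.0808 and 0.150). Over 10-fold differences were called higher for 1 and lower for 8 members (7 without *Sema4f*) in mural cells, against 4.99% and 5.15% of genes, higher for 4 and lower for 6 in endothelial cells, against 6.28% and 7.16%, and higher for 1 and lower for 10 in microglia, against 8.27% and 7.45%. All 3 mural libraries lay above the other 9 for 1 member and below them for 3, against 7.25% and 4.30% of genes. The endothelial libraries did so for 4 and 4 members, against 6.28% and 2.99%, and the microglial ones for 2 and 5, against 11.5% and 5.97%. These contrasts share libraries, since each population is part of the rest for the others.

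Compared only with the populations made with the same kits, 6 members were higher and 10 lower in mural cells, against 16.9% and 19.3% of all genes. *Nrp1* was not called there, with a log2 difference of 0.35 ± 0.15 (SE, adjusted p = 0.0975) in limma. *Plxnb1*, *Sema5a*, *Sema5b* and *Sema6d* kept the mural call in every alternative run on this comparison, in which no fold was required, and without the brain of Mu-346 the lower members numbered 5. In endothelial cells 12 were higher and 7 lower, against 14.6% and 16.0%. The higher ones comprised *Nrp2*, the plexins *Plxna2*, *Plxnb1* and *Plxnd1*, the secreted *Sema3b*, *Sema3f* and *Sema3g*, all 4 class 6 members and *Sema7a*. Of these, *Sema3b* and *Sema6b* were lost in some alternative of the same kind, and without the brain of Ec-346 the lower members numbered 3. A member could be called here without being highest in endothelial cells. *Sema6d* averaged 6363 normalized counts in endothelial cells, 18292 in mural cells and 97.9 in microglia. *Plxnb1*, called in endothelial and mural cells alike, averaged 1155 and 1186 there and 53.9 in microglia. In microglia 9 were higher and 11 lower, against 19.6% and 17.6%. Beside *Nrp2*, the higher ones were 4 plexins, namely *Plxna4*, *Plxnb2*, *Plxnb3* and *Plxnc1*, and 4 semaphorins, all of class 4, namely *Sema4a*, *Sema4b*, *Sema4d* and *Sema4g*. Of these, *Nrp2*, *Plxnb3* and *Sema4a* were lost in some such alternative. No tested member of class 3, 5, 6 or 7 was higher in microglia. The fit shares its estimate of the spread with the neural libraries, which varied less. Fitted on only the 9 libraries of the shared kits, *Sema3b* and *Sema4g* were not called in endothelial cells (limma adjusted p = 0.0556 and 0.0576), nor *Nrp2* and *Sema3f* in microglia (adjusted p = 0.0882 and 0.0921).

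In single cells the gates were compared with 1 chemistry for all. Of 994 wells with a gate, 686 cells had more than 1500 transcripts, namely 123 neural, 210 mural, 225 endothelial and 128 microglial ones, with median depths of 7717, 6885, 6408 and 10761 transcripts. Transcripts were summed per gate and plate and tested with edgeR, which gave values for 20 of the 31 members. The neural gate was higher for 11 of the 20 and lower for 3, against 22.5% and 17.3% of the 9281 tested genes. The higher ones were all 4 class A plexins, *Plxnb1*, *Plxnc1*, *Sema4a*, *Sema4g*, *Sema5a*, *Sema5b* and *Sema6c*, and the lower ones *Nrp1*, *Plxnd1* and *Sema4c*. Without plate 1, or without plate 2, 14 members could be tested and 5 of these were higher, and none of the 11 lost its call there where it was tested. The higher call of *Sema4a* was lost with DESeq2 (adjusted p = 0.469) and with no filter on low counts (edgeR adjusted p = 0.0798). Each gate on a plate came from 1 or 2 libraries, and the third plate held only 6 to 14 cells per gate. By design, 25 of the 55 pairs of the 11 libraries used the same 96 barcodes.

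The mural gate was higher for 7 members and lower for 2, against 13.5% and 8.30% of genes. The higher ones were *Plxna1*, *Plxnb1*, *Plxnb2*, *Sema4c*, *Sema5a*, *Sema5b* and *Sema6d*. Of these, *Plxnb2* was lost without plate 2 (edgeR adjusted p = 0.240), *Sema5a* without plate 1 or plate 2 (adjusted p = 0.195 and 0.0699), and *Sema5a* and *Sema5b* with DESeq2 (adjusted p = 0.113 and 0.124). The lower ones were *Nrp2* and *Plxnc1*. Without plate 1 or plate 2 *Plxnc1* could not be tested, and *Nrp2* was lost without plate 1. The call of *Plxnc1* was lost with DESeq2 (adjusted p = 0.0801). The endothelial gate was higher for 8 and lower for 5, against 16.4% and 6.96%. The higher ones were *Nrp1*, *Nrp2*, *Plxna2*, *Plxnb1*, *Plxnd1*, *Sema6a*, *Sema6d* and *Sema7a*. Of these, *Plxnb1* was lost with DESeq2 (adjusted p = 0.0886) and in edgeR without plate 1 or plate 2 (adjusted p = 0.144 and 0.126). A gate was called against the mean log level of the other 3 gates, and *Plxna1*, *Plxna2* and *Plxnb1* read 0 in microglia. By the mean of the plates, *Plxnb1* stood at 39.1 transcripts per 1000000 in endothelial, 54.1 in mural and 74.5 in neural cells. *Plxna2* stood at 40.7 in endothelial and 229 in neural cells, and *Plxna1* at 46.1 in mural and 57.1 in neural cells. The lower ones were *Plxna4*, *Plxnb2*, *Sema4a*, *Sema4d* and *Sema5b*, of which *Plxna4*, *Sema4a* and *Sema5b* were lost with DESeq2 (adjusted p = 0.310, 0.270 and 0.264). Only 2 of the 5 could be tested without plate 1, and both kept the call, while without plate 2 it was kept by 2 of 3, *Sema5b* losing it. The microglial gate was higher for *Plxnb2* and *Sema4d* and lower for 11, against 22.2% and 21.2%. Of these 11, 10 could be tested without plate 2 and 7 kept the call, *Sema4c*, *Sema5b* and *Sema7a* losing it. Without plate 1, 9 could be tested and 8 kept the call, *Sema4c* losing it (edgeR adjusted p = 0.144).

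Where the transcripts were plentiful, the single cells gave levels that can be read by plate. *Sema6d* stood at 697, 673 and 659.6 CPM (transcripts of the gene per 1000000 of the summed cells) in mural cells of plates 1, 2 and 3, and at 270.1, 286 and 271 in endothelial cells. Its neural values were 73.1, 125 and 54.7 CPM and its microglial values 13.3, 0 and 19.7 CPM. The mural gate lay above all others on each plate, by 3.37 ± 0.28 (SE, adjusted p = 9.68e-16) on the log2 scale in edgeR. Shares of cells with at least 1 transcript are given as read and after thinning each cell to 1500 transcripts, since the gates differ in depth. *Sema6d* was found in 184 of 210 mural cells (87.6%, thinned 58.1%) and in 10 of 128 microglia (7.81%, thinned 1.56%), the most deeply read cells. *Plxnd1* stood at 282, 288 and 99.7 CPM in endothelial cells and at most 30.7 in any other gate and plate, with a log2 difference of 4.32 ± 0.25 (SE, adjusted p = 9.44e-22) in edgeR. Its transcripts were found in 153 of 225 endothelial cells (68.0%, thinned 31.6%) and 7 of 123 neural cells (5.69%, thinned 0%). *Sema4d* stood at 85.8, 101 and 59.1 CPM in microglia, with a log2 difference of 3.91 ± 0.35 (SE, adjusted p = 9.52e-15) in edgeR, and was found in 68 of 128 microglia (53.1%, thinned 13.3%) against 3 of 225 endothelial cells (1.33%, thinned 0%). On the third plate, with 10 mural cells, the mural gate reached 68.7 CPM of *Sema4d*, above the microglial value of that plate.

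Of the plexins, 3 were not found in microglia. *Plxna1*, *Plxna2* and *Plxnb1* were each found in 0 of 128 microglia, which at this depth allows a transcript to be found in up to 2.34% of such cells for each. This is no limit on the cells that express them, and bulk microglia held up to 136, 151 and 87.8 normalized counts of the 3 genes. They were found in 42 of 123 neural cells (34.1%, thinned 8.13%), 66 of 123 neural cells (53.7%, thinned 26.0%) and 50 of 123 neural cells (40.7%, thinned 13.0%). *Plxnb2* was found in 78 of 128 microglia (60.9%, thinned 11.7%), 106 of 210 mural cells (50.5%, thinned 14.3%), 37 of 123 neural cells (30.1%, thinned 9.76%) and 23 of 225 endothelial cells (10.2%, thinned 4.00%). *Sema3g*, which did not pass the filter on low counts and was not tested, was found in 61 of 225 endothelial cells (27.1%, thinned 9.78%), in 1 of 123 neural cells (0.813%, thinned 0.813%), in 1 of 128 microglia (0.781%, thinned 0.781%) and in 0 of 210 mural cells, which allows a transcript to be found in up to 1.43%. *Plxnb3*, also not tested, was found in 1 of 128 microglia (0.781%, thinned 0%), 1 of 210 mural cells (0.476%, thinned 0%), 0 of 123 neural cells and 0 of 225 endothelial cells. The single cells thus do not show its bulk difference either way. These shares and limits reflect counting error alone.

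**Figure D4:**
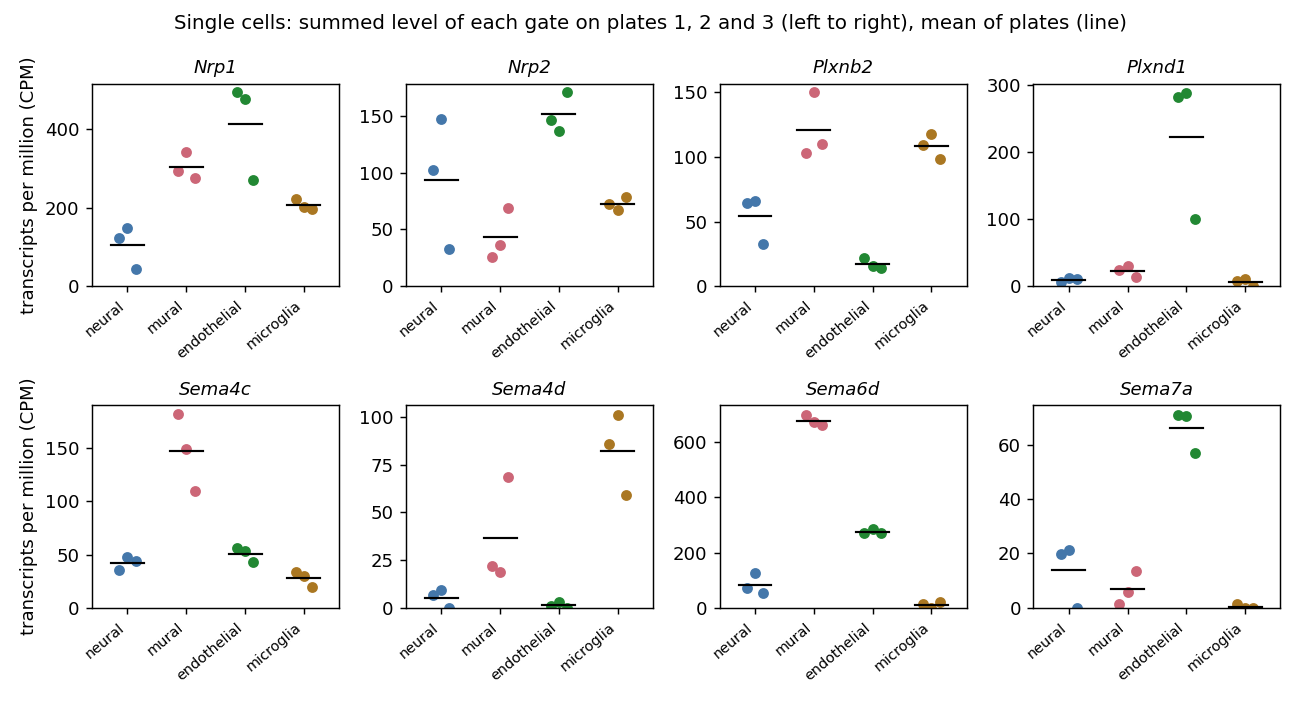
Summed level of 8 genes in the cells of each gate, in CPM on a linear axis, with plates 1, 2 and 3 from left to right and lines at the mean of the plates. The axes differ between panels. *Sema6d* is highest in mural cells and *Plxnd1* and *Sema7a* in endothelial cells on every plate, while the neural level of *Sema4c* lies below its mural level on every plate.

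Bulk and single cells placed 15 of the 20 members tested in both highest in the same population. Of 14 members highest in neural cells in bulk, 11 were highest in the neural gate, the exceptions being *Nrp2*, *Sema4c* and *Sema7a*. These ranks use all cells of a gate together, and by the mean of the plates they are 14 of 20 and 10 of 14, since *Sema4a* is then highest in microglia. *Sema4c* stood at 35.4, 47.3 and 43.8 CPM in neural cells and at 182, 149 and 109.8 in mural cells of plates 1, 2 and 3. The neural gate was thus below the mural gate on each plate, and the mural log2 difference was 1.77 ± 0.22 (SE, adjusted p = 2.19e-09) in edgeR, whereas the neural one was -0.76 ± 0.30 (SE, adjusted p = 0.0394). The neural call was lost with DESeq2 and without plate 1 or plate 2 (adjusted p = 0.264, 0.565 and 0.266). In bulk, where neural libraries differ in kits, the neural log2 difference of *Sema4c* had the opposite sign, 3.02 ± 0.56 (SE).

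*Sema7a* stood at 70.9, 70.7 and 57.0 CPM in endothelial cells and 19.9, 21.3 and 0 in neural cells, with an endothelial log2 difference of 4.02 ± 0.41 (SE, adjusted p = 2.56e-12) in edgeR. It was found in 68 of 225 endothelial cells (30.2%, thinned 8.0%), 13 of 123 neural cells (10.6%, thinned 2.44%) and 1 of 128 microglia (0.781%, thinned 0%). *Nrp2* stood at 146, 137 and 171 CPM in endothelial cells and 102, 147 and 32.8 in neural cells, so the neural and endothelial plates overlapped. The mural log2 difference of *Nrp2* was -1.75 ± 0.29 (SE, adjusted p = 2.44e-06) in edgeR, with the sign it had in bulk, but was not called without plate 1 (adjusted p = 0.122). Over all plates *Nrp1* was highest in endothelial cells, with overlap on plate 3, at 493, 476 and 271 CPM against 295, 342 and 275 in mural cells, and lowest in neural cells at 122, 149 and 43.8. Its neural log2 difference was -1.49 ± 0.29 (SE, adjusted p = 2.24e-05) in edgeR, and its mural one, 0.32 ± 0.25 (SE, adjusted p = 0.417), was not called. *Plxnb2* was highest in mural cells, at 103, 150.0 and 109.8 CPM, and overlapped there with the microglial 109.5, 118 and 98.5. *Plxnd1*, which did not differ detectably between neural cells and the rest in bulk (log2 difference 0.04 ± 0.34 (SE, adjusted p = 0.918) in limma), had a log2 difference of -2.18 ± 0.50 (SE, adjusted p = 2.47e-04) for the neural gate in edgeR.

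**Figure D5:**
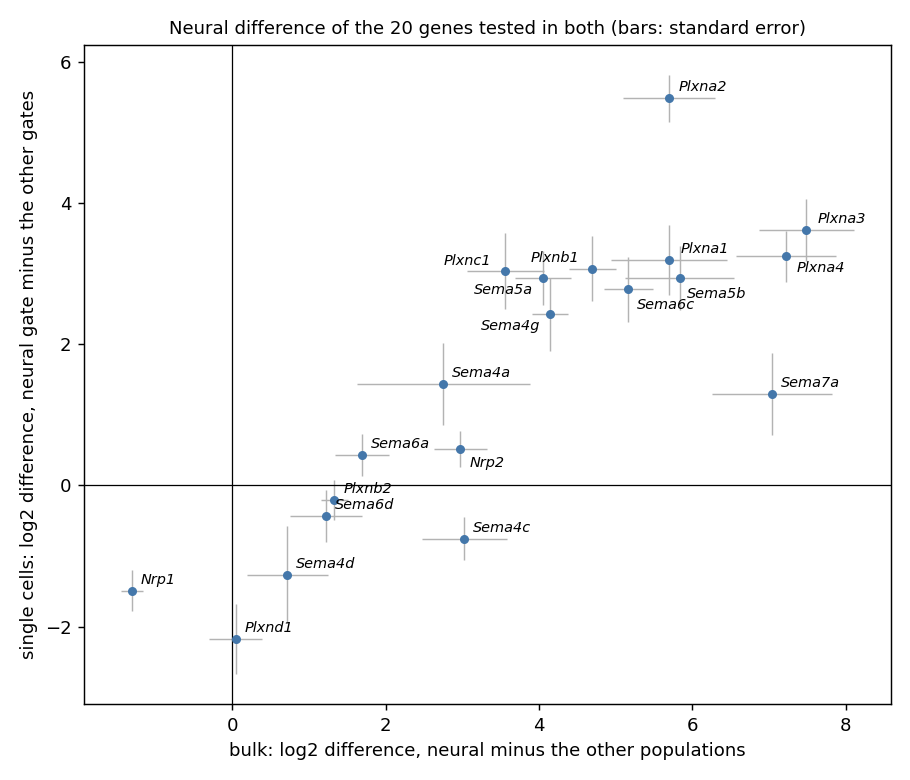
Each point is 1 of the 20 genes tested in both data sets, with the log2 difference of neural cells from the other populations in bulk (x axis) and of the neural gate from the other gates in single cells (y axis). Bars are standard errors. Class A plexins lie far up and to the right, *Nrp1* is below 0 on both axes, and *Sema4c* is above 0 in bulk and below 0 in single cells.

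Of 47 other genes of semaphorin signalling (co-receptors, collapsin response mediators, small GTPases with their regulators, and kinases), 46 were tested in bulk with limma. Of these, the adaptor *Tyrobp* and the receptors *Trem2* and *Cd72* passed the minimum only through microglia, with *Tyrobp* at 16779 to 18492 normalized counts there and at most 3.54 in any other library, and the counts leave these 3 out. Of the other 43, in neural cells 25 were higher and 14 lower, against 32.9% and 31.2% of all genes. The largest higher difference was that of the adhesion co-receptor *Cntn2*, 9.85 ± 0.87 (SE, adjusted p = 3.20e-06) on the log2 scale, and the largest lower one that of the VEGF receptor *Kdr*, -4.20 ± 0.29 (SE, adjusted p = 5.02e-07). Picked out after their values were seen, the L1 family of adhesion co-receptors was higher with all 3 listed members, *L1cam* by 7.88 ± 0.96 (SE, adjusted p = 3.59e-05), *Chl1* by 9.16 ± 1.70 (SE, adjusted p = 7.60e-04) and *Nrcam* by 9.25 ± 1.33 (SE, adjusted p = 1.22e-04) in limma. Of the 5 collapsin response mediators, *Crmp1*, *Dpysl3*, *Dpysl4* and *Dpysl5* were higher, while *Dpysl2* had a log2 difference of -2.02 ± 0.13 (SE, adjusted p = 3.59e-07). In mural cells 11 were higher and 15 lower, against 19.3% and 22.7% of all genes, with the largest differences in the integrin *Itga1*, 7.77 ± 0.55 (SE, adjusted p = 2.14e-06), and in *Cntn2*, -6.59 ± 0.87 (SE, adjusted p = 1.64e-04). In endothelial cells 11 were higher and 13 lower, against 19.7% and 22.4%, with the largest in *Kdr*, 7.58 ± 0.29 (SE, adjusted p = 4.39e-08), and in the kinase *Pak1*, -7.07 ± 1.24 (SE, adjusted p = 0.00110). In microglia 12 were higher and 17 lower, against 23.4% and 22.3%, with the largest in the receptor kinase *Met*, 4.29 ± 1.01 (SE, adjusted p = 0.00522), and in *Itga1*, -9.56 ± 0.55 (SE, adjusted p = 1.69e-07). Within the shared kits 13 were higher and 13 lower in microglia, against 19.6% and 17.6% of all genes. In mural cells 10 were higher and 10 lower there, against 16.9% and 19.3%, and in endothelial cells 7 and 9, against 14.6% and 16.0%. *Itga1*, *Met* and *Kdr* also serve other pathways of these cells.

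The spread between libraries of different brains differed with the population. Neural libraries were made with other kits, and the parts of brain and library preparation in this spread were not tested. Over members with a mean above 100 normalized counts, the median coefficient of variation was 4.96% in neural cells (27 members), 29.9% in microglia (15), 28.4% in endothelial cells (20) and 22.9% in mural cells (17). Over all genes above that level it was 4.36%, 21.7%, 31.8% and 23.6% in the same order. The most variable was *Sema3e* in endothelial cells, at 171%. *Sema3a* and *Sema4a* in endothelial cells each had 1 library at 0 beside libraries of up to 204 and 98.0 normalized counts.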

How the data were processed

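RNA was measured in 12 bulk libraries (4 sorted populations of 3 brains at E14.5) and in single cells of 3 wild-type plates. The deposited bulk values are normalized counts, a linear signal per gene that the authors obtained by dividing read counts by size factors. The authors' single-cell values, recorded as other because the tables could be read only as text, are expected counts of transcripts per well, corrected for molecular identifiers. The submitters' processing notes name STAR, featureCounts, DESeq2, BWA 0.6.2-r126 and mm10, and further settings are not given in the sources used here. Wells took their gate from the deposited annotation. Samples of the Mof knockout were not used.

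Members and gene lists were chosen with earlier results of these data known. Bulk values were tested as log2(normalized count + 1) with limma 3.58.1 (trended variance) over genes with a mean of at least 10, each population against the mean of the other 3, or of the others made with the same kits. Single cells with more than 1500 transcripts were summed per gate and plate, rounded and tested with edgeR 4.0.16 (quasi-likelihood), leaving out genes of low count with filterByExpr. All tests were two-sided and Benjamini-Hochberg adjusted over all genes tested, with a threshold of 0.05. The text names every member, with values in every library for those over 4-fold from the rest whose 3 libraries all lay on one side, for the neuropilins and for the leading members per kilobase (GENCODE vM21 exon lengths). Where the rule asked only for means, values per library are often given too. From the other genes of the pathway the largest called difference in each direction is named, leaving aside genes that passed the minimum through 1 population only.

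Whole reads were recovered by dividing by the smallest step of each library. All of 124078 values of up to 100 reads (100%) were whole within 0.01. They ranged from 17638358 to 98414914 reads per library and served the count tests run as alternatives (edgeR, and DESeq2 1.42.0). Same-numbered bulk libraries bear 1 brain's number in their titles, which is where the pairing comes from. Their deviations from the group means correlated at -0.054 to 0.0801. Nothing says whether the plates hold separate litters, so p-values of single cells measure the spread between plates. Doublets were not called, since each well was sorted as a single cell. Between 1.06% and 8.78% of transcripts of a single-cell library lay outside the annotated wells.

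On simulated data drawn from the bulk means, limma called 42 of 50 genes changed 2-fold, 50 of 50 changed 4-fold and 1 of 19427 unchanged ones. For the single-cell sums, edgeR called 16 of 50 at 2-fold, 48 of 50 at 4-fold and 5 of 6651 unchanged ones. Each simulation gave all its genes and libraries the same relative spread, counting error aside, and changed neural samples only. The spread of the real libraries differed with population and gene, so these rates need not hold for them. The 9.36-fold mural difference of *Sema3a*, for example, was not called (limma adjusted p = 0.0561). Alternatives were another pseudocount, no minimum, quantile normalization, a block for the brain or plate, other tools, a deeper minimum per cell, a fit on only the 9 libraries of the shared kits, a 10-fold threshold (only for comparisons with the mean of the other 3) and leaving out each brain or plate. Scripts ran in R 4.3.3 and Python 3.11.15 (pandas 2.3.3, numpy 2.4.6, matplotlib 3.10.9, scipy 1.17.1). Promoter sequences came from the RefSeq table of GRCm38.p6, which held 26 of the 31 members.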

Additional observations from a re-analysis of the deposited data

How the results depend on the processing

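No member changed direction in a called comparison under any alternative run. In bulk, the single member lower in neural cells became 2 with a pseudocount of 10 and with DESeq2, and 0 when a difference over 10-fold was required. That requirement also left 1 of 4 higher and 8 of 13 lower members in mural cells, 4 of 9 and 6 of 13 in endothelial cells, and 1 of 4 higher ones in microglia. Leaving out 1 brain gave 3 to 7 higher and 8 to 11 lower members in endothelial cells, and within the shared kits 5 to 9 lower in mural and 3 to 7 lower in endothelial cells. In single cells, DESeq2 left 1 lower member in mural and 2 in endothelial cells. Leaving out 1 plate gave 5 to 13 higher members in neural, 0 to 2 lower in mural, 2 to 6 lower in endothelial cells and 7 to 11 lower in microglia. Without plate 1 or plate 2 fewer members (14) could be tested, and the cause of the other changes was not tested. With the brain as a replicate block, 25 members were higher in neural cells and 7 in mural cells within the shared kits. Of 210 results per member the block kept 204 and lost *Sema3b* and *Sema3c* in endothelial cells (limma adjusted p = 0.0550 and 0.0663). It added 4 calls, namely *Sema4a* in neural cells, *Plxnb3* and *Sema3e* in mural cells, and *Nrp1* in mural cells within the shared kits. With the plate as a replicate block, 79 of 80 single-cell results kept their call. Quantile normalization moved the median log2 difference of all genes by -0.25 in neural, 0.15 in mural and 0.11 in endothelial cells, and DESeq2 by -0.11 in neural cells. DESeq2 gave no adjusted p for *Sema3c* and *Sema3e* in neural and *Sema3c* in endothelial cells. In single cells 11 members did not pass the filter on low counts, of which 10 had at most 26.0 transcripts over all gates and *Sema3g* 107, while tested members had at least 46.0.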
